A study of Mus musculus with 19 samples.

Results

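Humanized hotspots are the sites at which a PRDM9 protein carrying the DNA-binding zinc fingers of human PRDM9 directs meiotic double-strand breaks in mouse testis. They were followed in a pair of hybrid crosses that share the humanized *Prdm9* allele and the B6 genome but differ in the other parent. All autosomal hotspots that the authors attributed to the humanized allele were taken from the DMC1 table of each cross. There were 4485 of 15727 autosomal hotspots in Hum/SPRT and 4729 of 10031 in STUS/Hum. Hotspots of the crosses were treated as 1 pair when their centers lay within 500 bp, each hotspot being used once and the closest centers first.

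The series comprises 19 testis samples and asks whether replacing the binding specificity of PRDM9 moves breaks to positions shared by both homologs of a hybrid. DMC1 single-stranded DNA sequencing (SSDS) was available as 1 library for each genotype. Hum/SPRT males were offspring of C57BL/6J (B6) females heterozygous for the knock-in allele, which replaces the zinc finger array with that of the human B allele, and SPRET/EiJ (*Mus spretus*, SPRT) males. They therefore carried 1 humanized and 1 SPRT *Prdm9* allele. STUS/Hum males came from B6 mice with the same knock-in crossed with STUS/Jpia (*M. musculus musculus*, STUS), and carried 1 humanized and 1 STUS allele. The DMC1 samples were labelled whole adult testis, and the hybrid males of the study were analyzed at 10 weeks of age. How many males entered each library was not given in the sources used here. H3K4me3 ChIP-seq was deposited for Hum/SPRT as 1 set of columns for 3 ChIP samples, and no H3K4me3 table for STUS/Hum was used here. With 1 DMC1 library per cross, no difference between the crosses has a replicate check, and every value below is a description of these libraries with no test.

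PRDM9 binds DNA through its zinc fingers and places H3K4me3 on the neighboring nucleosomes, and a subset of bound sites is then cut to start meiotic recombination. DMC1 coats the single-stranded ends left by each break, so SSDS reads map both the site and, through SNPs, the homolog that was cut. The DMC1 signal at a site depends on how often it is cut and on how long the ends stay coated. PRDM9 made from either parental allele can act on both homologs. In a hybrid a site can be bound on both homologs, or mainly on the homolog whose motif is intact.

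The authors give each hotspot a DMC1 signal ("heat", in their own unit, with no scaling stated), and the fraction of DMC1 reads from the B6 homolog. Here hotspots with a B6 share of 25 to 75% were termed matched, those above 75% B6-sided and those below 25% other-sided, where the other homolog is SPRT in 1 cross and STUS in the other. The read depth behind each B6 fraction is unknown. The PRDM9 allele of a hotspot was assigned by the authors through comparison with other mice. Whether the second cross entered that comparison was not given in the sources used here.

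To show the DNA at sites used in both crosses, the RefSeq promoter windows (GRCm38.p6, 250 bases before to 50 after a gene start, written in the direction of the gene) that held a humanized hotspot center in both libraries are given. There were 4, and the capitals run from the center in one library to the center in the other. The windows lie at chr4:129354027-129354326 (plus strand), chr8:90740720-90741019 (minus), chr12:29937256-29937555 (minus) and chr17:25518339-25518638 (plus).
LOC108168979: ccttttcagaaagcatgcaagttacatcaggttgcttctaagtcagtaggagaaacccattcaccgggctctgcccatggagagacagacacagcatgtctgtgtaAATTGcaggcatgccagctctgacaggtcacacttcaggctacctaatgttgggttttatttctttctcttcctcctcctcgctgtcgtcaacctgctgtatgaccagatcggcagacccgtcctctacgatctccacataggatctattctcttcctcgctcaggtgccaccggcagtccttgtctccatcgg
Gm35850: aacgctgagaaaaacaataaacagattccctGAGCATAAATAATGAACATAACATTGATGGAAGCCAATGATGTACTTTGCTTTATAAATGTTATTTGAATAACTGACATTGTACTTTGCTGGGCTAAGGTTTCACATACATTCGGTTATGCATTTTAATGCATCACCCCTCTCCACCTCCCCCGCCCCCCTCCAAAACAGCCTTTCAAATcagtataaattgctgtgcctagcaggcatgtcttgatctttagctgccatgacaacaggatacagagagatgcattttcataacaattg
Gm31939: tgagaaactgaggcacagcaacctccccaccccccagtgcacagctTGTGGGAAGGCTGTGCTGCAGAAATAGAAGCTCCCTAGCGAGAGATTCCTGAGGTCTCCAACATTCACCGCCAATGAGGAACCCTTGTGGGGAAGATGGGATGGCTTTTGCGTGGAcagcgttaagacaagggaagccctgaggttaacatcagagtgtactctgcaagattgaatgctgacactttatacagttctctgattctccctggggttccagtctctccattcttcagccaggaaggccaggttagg
Gm33727: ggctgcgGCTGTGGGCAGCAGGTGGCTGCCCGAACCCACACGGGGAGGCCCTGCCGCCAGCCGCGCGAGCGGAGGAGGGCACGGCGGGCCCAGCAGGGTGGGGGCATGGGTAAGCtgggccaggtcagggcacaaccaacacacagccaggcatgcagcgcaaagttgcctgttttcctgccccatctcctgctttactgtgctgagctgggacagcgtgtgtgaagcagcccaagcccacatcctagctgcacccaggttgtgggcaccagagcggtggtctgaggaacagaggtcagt
The centers were 5 bases apart, both ends counted, at LOC108168979, 180 at Gm35850, 116 at Gm31939 and 108 at Gm33727. At LOC108168979 the DMC1 signal was 251 in Hum/SPRT and 147 in STUS/Hum, where 48.4% of reads came from B6. At Gm35850 it was 65.8 and 45.1, and the site was matched in both crosses, with 33.3 and 45% of reads from B6. At Gm31939 it was 48.9 and 107, with 40.8 and 25% from B6, and at Gm33727 53.1 and 44.4, with 60% from B6 in STUS/Hum. LOC108168979 and Gm33727 had no B6 fraction in Hum/SPRT.

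The human B allele is known for a motif whose core is CCTCCCT. On either strand, this run of 7 letters was in 15.4% of the 32851 promoter windows and in 5 of the 16 windows that held a humanized center in at least 1 cross. None of the 4 windows above held it. The match nearest to a center was at Gm41047 (chr13:103507008-103507307, plus strand), 20 bases from the center in STUS/Hum, and the capitals below mark it.
Gm41047: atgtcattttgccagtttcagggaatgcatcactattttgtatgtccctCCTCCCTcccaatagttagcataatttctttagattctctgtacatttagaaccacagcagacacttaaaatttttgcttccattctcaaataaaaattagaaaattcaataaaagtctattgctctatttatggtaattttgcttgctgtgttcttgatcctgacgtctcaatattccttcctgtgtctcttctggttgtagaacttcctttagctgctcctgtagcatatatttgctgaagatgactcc
That hotspot had a DMC1 signal of 18.7 and 35.7% of its reads from B6, and had no humanized partner in Hum/SPRT. A match is only a description of letters in a window, not a binding site.

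Most humanized hotspots were found in both crosses. Of the 4485 in Hum/SPRT, 3179 were paired (70.9%, 95% Wilson interval 69.5 to 72.2%), and these were 67.2% (65.9 to 68.5%) of the 4729 in STUS/Hum. Over all alleles, 22.9% of the Hum/SPRT hotspots and 35.9% of the STUS/Hum hotspots had any hotspot of the other library within 500 bp, counts that the humanized pairs largely make up. Intervals throughout cover counting error only and treat hotspots as independent. Paired centers lay a median of 71 bp apart, and 90% lay within 243 bp. Only 14 pairs were over 450 bp apart, and a limit of 550 bp would have added 8 pairs.

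The paired hotspots carried 78.2% of the humanized DMC1 signal in Hum/SPRT and 81.7% in STUS/Hum. The remaining 1306 hotspots of Hum/SPRT comprised 1140 with no hotspot of any allele nearby in STUS/Hum and 166 that lay at a hotspot without an assigned allele. The remaining 1550 of STUS/Hum comprised 1501 with no hotspot of any allele in Hum/SPRT and 49 at an unassigned one. No unpaired humanized hotspot lay at a site that the other cross attributed to another *Prdm9* allele. Because alleles were assigned by comparing mice, this absence may be set in part by the assignment itself, and this was not tested.

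Paired hotspots were the stronger ones. In Hum/SPRT their median DMC1 signal was 38.7 (quartiles 23.8 and 70.9), against 24.7 (17.2 and 42.5) at unpaired hotspots, a ratio of 1.57. In STUS/Hum the medians were 48.5 (29.3 and 85.7) and 23.5 (17.9 and 33.3), a ratio of 2.07. The quartile ranges overlapped in both libraries, and the paired median was the higher on 19 of 19 autosomes in each, with ratios from 1.19 to 2.17 in Hum/SPRT and from 1.71 to 2.55 in STUS/Hum. Weak hotspots lie near the detection limit of a library, and the part of detection in these shares was not tested.

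When the hotspots of each library were ranked by DMC1 signal and cut into 10 equal groups, the paired share in Hum/SPRT was 47.2% (42.6 to 51.8%) in the weakest group and 84.6% (81.0 to 87.7%) in the strongest. In STUS/Hum it was 28.8% (24.9 to 33.0%) and 94.9% (92.6 to 96.6%). The strongest group of Hum/SPRT, with signals of 110 or more, thus still held 69 hotspots that had no humanized partner, and that of STUS/Hum, with signals of 119 or more, held 24.

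**Figure D1:**
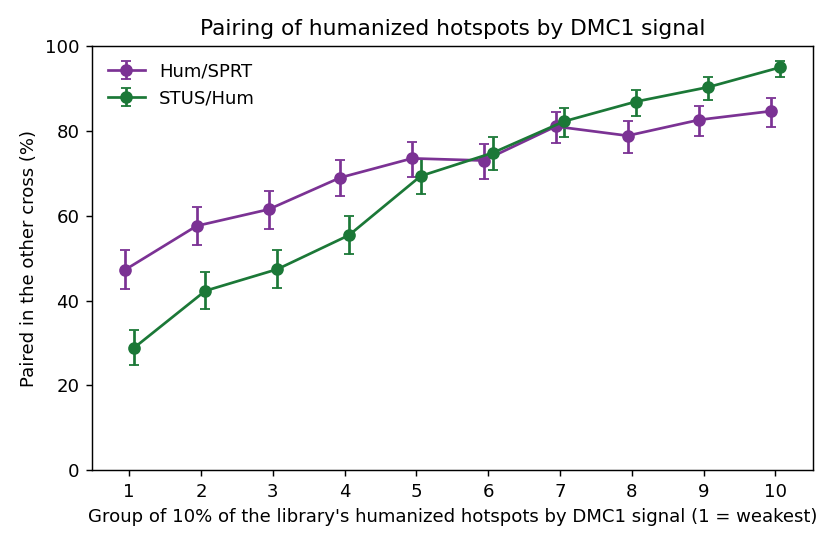
Share of humanized hotspots with a partner in the other cross (y axis, percent) for 10 equal groups of the library's hotspots by DMC1 signal (x axis, weakest first), with 95% Wilson intervals. The share in STUS/Hum (green) goes from 28.8 to 94.9%, and that in Hum/SPRT (purple) from 47.2 to 84.6%.

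Whether a humanized hotspot was seen in the other cross varied with the homolog on which it was cut. In Hum/SPRT, 86.6% (84.6 to 88.3%) of the 1259 B6-sided hotspots, 76.1% (73.8 to 78.2%) of the 1429 matched and 41.5% (37.7 to 45.5%) of the 614 cut mainly on SPRT had a partner in STUS/Hum. In STUS/Hum, 71.7% (68.7 to 74.5%) of the 923 B6-sided, 70.5% (68.7 to 72.2%) of the 2714 matched and 57.2% (53.3 to 61.0%) of the 626 cut mainly on STUS had a partner in Hum/SPRT. The B6 homolog is the one that both hybrids carry.

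The other-sided hotspots were not the weaker ones. Their median DMC1 signal was 39.2 in Hum/SPRT, against 29.8 for B6-sided and 33.6 for matched hotspots, and 45.0 in STUS/Hum, against 34.2 and 40.02. Within the strongest 25% of Hum/SPRT hotspots, 96.3% (92.9 to 98.1%) of B6-sided, 93.9% (90.9 to 95.9%) of matched and 56.3% (49.0 to 63.3%) of other-sided hotspots were paired. The same shares in STUS/Hum were 96.1% (92.2 to 98.1%), 96.5% (94.9 to 97.6%) and 68.4% (61.5 to 74.5%). In the weakest 25% the other-sided share was again the lowest in Hum/SPRT, at 31.0% (23.2 to 40.01%) against 76.4 and 47.2%. In the weakest 25% of STUS/Hum it was the highest, at 46.7% (37.4 to 56.2%) against 42.9 and 36.4%, with intervals that overlap.

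**Figure D2:**
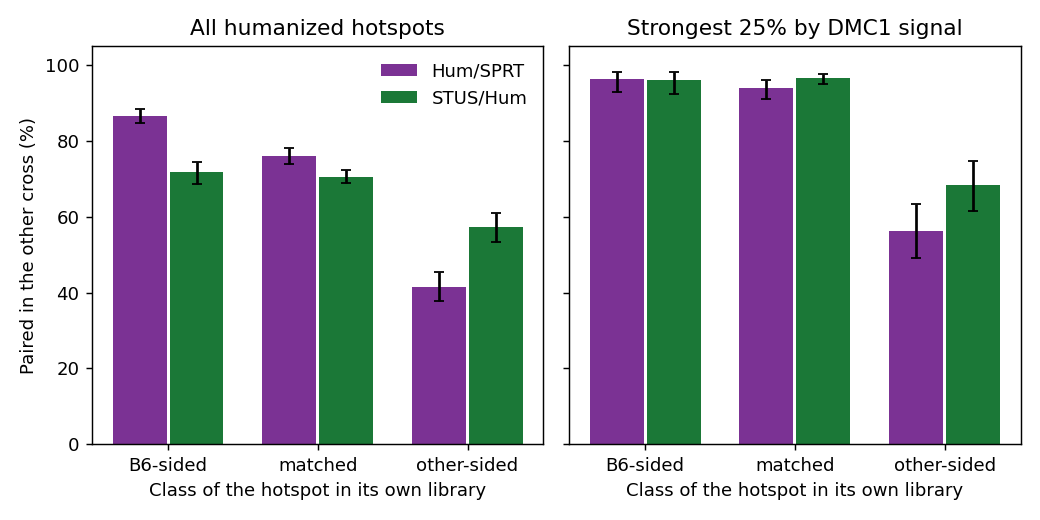
Share of humanized hotspots with a partner in the other cross (y axis, percent), by class in the library's own B6 fraction (x axis), for all hotspots (left) and for the strongest 25% (right); bars are Hum/SPRT in purple and STUS/Hum in green, with 95% Wilson intervals. Among the strongest, 56.3 and 68.4% of other-sided hotspots were paired, against 93.9 to 96.5% in the other classes.

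Seen from the other side, the hotspots found in 1 cross differed from the paired ones in which homolog was cut. In Hum/SPRT 44.7% (42.7 to 46.7%) of the 2432 paired hotspots with a B6 fraction were matched, and 39.3% (36.1 to 42.6%) of the 870 unpaired. This order turned with limits of 10 to 90%, at 66.1% of paired and 75.4% of unpaired hotspots, and held with 40 to 60%, at 20.7 and 15.3%. Over hotspots of all alleles in that library, 33.6% were matched. B6-sided hotspots were 44.8% (42.9 to 46.8%) of the paired and 19.4% (16.9 to 22.2%) of the unpaired, and other-sided hotspots 10.5% (9.33 to 11.8%) of the paired and 41.3% (38.0 to 44.6%) of the unpaired. The median share of reads from B6 was 65.4% at paired and 32.2% at unpaired hotspots.

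In STUS/Hum the matched share was 65.2% (63.5 to 66.9%) of 2933 paired and 60.2% (57.6 to 62.8%) of 1330 unpaired hotspots, against 46.5% of hotspots of all alleles. Here too the order turned with limits of 10 to 90%, at 82.6 and 85.8%, and with 40 to 60% the shares were 37.3 and 28.8%. Other-sided hotspots were 12.2% (11.1 to 13.4%) of the paired and 20.2% (18.1 to 22.4%) of the unpaired. In the strongest 25% the gap was wider: 64.2% (54.2 to 73.1%) of the 95 unpaired hotspots with a fraction were cut mainly on STUS, against 12.6% (10.7 to 14.7%) of the 1048 paired. In Hum/SPRT the corresponding shares were 72.7% (63.7 to 80.2%) of 110 and 15.8% (13.2 to 18.9%) of 650. The strongest 25% held 195 unpaired and 926 paired hotspots in Hum/SPRT, and 100 and 1082 in STUS/Hum. Many of these strong Hum/SPRT sites thus had no fraction.

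A B6 fraction was missing more often at unpaired hotspots, at 33.4% of them in Hum/SPRT and 14.2% in STUS/Hum, than at paired ones, at 23.5 and 7.74%. Sites without a fraction were not weak in Hum/SPRT. Their signal there, 37.0 by median, exceeded that of B6-sided (29.8) and matched sites (33.6), and fell below other-sided ones (39.2). In STUS/Hum they were weaker than every class, at 23.9. The classes above, and those of pairs below, describe only hotspots that have a fraction. Whether sites without one were cut on the same homologs was not tested.

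Strong hotspots without a partner were named by a rule, the 3 with the highest signal in each library that had no hotspot of any allele within 500 bp in the other. In Hum/SPRT the strongest (DMC1 signal 321) was on chromosome 6 at position 17639953 within Capza2, which encodes a subunit of the actin-capping protein, and had no B6 fraction from DMC1. Of its 680 SNP-carrying H3K4me3 reads, 29.1% came from B6 (95% Wilson interval 25.8 to 32.6%). The next (288) was on chromosome 3 at position 153491046 within St6galnac3, a sialyltransferase gene, with 4.25% of DMC1 reads and 12.6% (10.4 to 15.1%) of 762 H3K4me3 reads from B6. The last (263) was on chromosome 19 at position 23225278 within Smc5, which encodes a subunit of a chromosome maintenance complex, with 45.9% (39.7 to 52.2%) of 242 H3K4me3 reads from B6.

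In STUS/Hum the strongest unpartnered hotspot (257) was on chromosome 8 at position 49051664 within Tenm3, a teneurin gene, and was matched, with 39.8% of reads from B6. A hotspot within Gucy2g, a guanylate cyclase gene, on chromosome 19 at position 55230864 had a signal of 180 and 21.4% from B6. The last (172) lay on chromosome 13 at position 82975573, 96.2 kb from the long noncoding RNA gene Gm33073, with 4% from B6. These 3 ranked between the 95.9th and 99.0th percentile of humanized hotspots in their library.

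At the paired hotspots the crosses ranked the sites alike in part. Spearman's rho of the DMC1 signal was 0.62 over 3179 pairs, and from 0.49 (chromosome 8) to 0.71 (chromosome 5) on single autosomes. These points share a library on each side and are not independent replicates. Expressed as percentile among the humanized hotspots of its library, the median gap between the crosses was 14.4 points. It was at most 10 points at 38.3% of pairs (36.6 to 39.99%) and over 50 points at 5.91% (5.15 to 6.79%). Of the 449 hotspots in the top 10% of Hum/SPRT, 244 (54.3%, 49.7 to 58.9%) were also in the top 10% of STUS/Hum, where they made up 51.6% (47.1 to 56.1%) of 473.

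The largest gap in each direction was described at 2 sites, and the 2 of these 4 sites with a fraction in both libraries were cut mainly on different homologs. Within Art3, a gene of the ADP-ribosyltransferase family, on chromosome 5 at position 92409189, the signal was 108 in Hum/SPRT and 10.9 in STUS/Hum. Its B6 share was 11.2 and 92.9%, so that the strong signal in Hum/SPRT came mostly from the SPRT homolog. The weak signal in STUS/Hum ranked at percentile 0.74 of the humanized hotspots there, and the reads behind its fraction are unknown. A hotspot on chromosome 18, 3.47 kb from B4galt6, a galactosyltransferase gene, had 183 and 17.9, with no B6 fraction in Hum/SPRT, and 29.2% (26.1 to 32.4%) of 798 H3K4me3 reads from B6.

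In the other direction, a hotspot on chromosome 17 at position 87951060, 24.0 kb from the mismatch repair gene Msh6, had a signal of 12.6 in Hum/SPRT and 160 in STUS/Hum, where 9.45% of reads came from B6. On chromosome 8 at position 11895135, 39.4 kb from Tex29, the values were 7.78 and 95.8, with 76.2 and 9.02% of reads from B6. Here the strong signal was on the STUS homolog.

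The fraction of reads from B6 was less alike between the crosses than the signal. A fraction in both libraries was available at 2267 of the 3179 pairs (71.3%), and Pearson's r was 0.46 (Spearman's rho 0.42), with r from 0.30 on chromosome 12 to 0.57 on chromosome 15. The median B6 share was 66.7% in Hum/SPRT and 50% in STUS/Hum, and was the higher in Hum/SPRT on 19 of 19 autosomes. Pairing kept 86.6% of B6-sided and 41.5% of other-sided hotspots in Hum/SPRT, and 71.7 and 57.2% in STUS/Hum. The medians therefore describe only pairs with a fraction in both libraries, not all humanized hotspots. The fraction was higher in Hum/SPRT at 61.1% of pairs (59.1 to 63.1%). It differed by at most 10 percentage points at 37.4% (35.4 to 39.4%) and by more than 50 at 12.2% (10.9 to 13.6%).

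**Figure D3:**
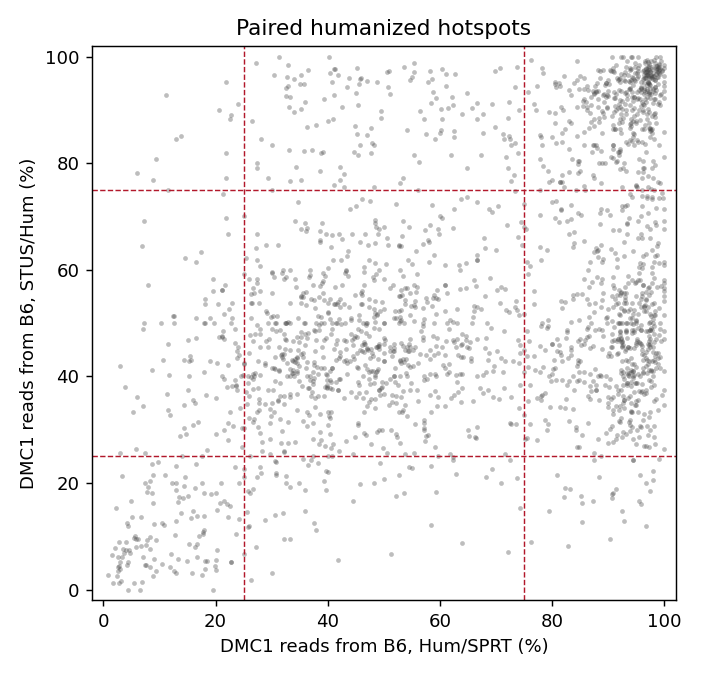
Share of DMC1 reads from the B6 homolog at each of 2267 paired humanized hotspots, in Hum/SPRT (x axis, percent) and in STUS/Hum (y axis, percent), with dashed lines at 25 and 75%. Points crowd in the matched square (786), at the right edge in the matched band of STUS/Hum (574) and in the upper right corner (426).

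Matched in both crosses were 786 pairs (34.7%, 32.7 to 36.7%). In each library alone, 43.8% of the 2267 pairs were matched in Hum/SPRT and 64.6% in STUS/Hum. Beside the 786, 885 pairs (39.0%, 37.1 to 41.1%) were matched in 1 cross only, 207 of them in Hum/SPRT and 678 in STUS/Hum. The other 596 (26.3%, 24.5 to 28.1%) were matched in neither. These shares depend on the limits: with 10 to 90%, 58.0% were matched in both and 10.9% in neither, and with 40 to 60%, 10.2 and 51.8%. Pairs matched in both carried 41.0% of the signal of these 2267 pairs in Hum/SPRT and 36.8% in STUS/Hum. On single autosomes the share matched in both went from 22.2% (chromosome 17) to 50% (chromosome 12).

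The strongest pair matched in both, and the strongest humanized hotspot of Hum/SPRT, lay in Gm32543, a noncoding RNA gene of chromosome 10, at position 17565320. Its signal was 422 in Hum/SPRT and 460 in STUS/Hum, with 39.9 and 40.2% of reads from B6, and 56.7% (53.0 to 60.3%) of 718 H3K4me3 reads. The next was on chromosome 4 at position 32726867 within Mdn1, an ATPase gene of ribosome assembly, with 356 and 376, and 46.2 and 45.8% from B6. The third lay within Kdm3b, a histone demethylase gene on chromosome 18, with 368 and 361, and 44.7 and 47.1% from B6. The rule chose these 3 sites for a high rank and a B6 share of 25 to 75% in both libraries.

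The class of a pair in STUS/Hum varied with its class in Hum/SPRT. Over all 2267 pairs, 64.6% were matched in STUS/Hum, 25.6% were B6-sided and 9.84% other-sided. Hotspots cut mainly on B6 in Hum/SPRT were thus matched in STUS/Hum less often than pairs in general, and B6-sided there more often. Of the 1031 B6-sided hotspots of Hum/SPRT, 574 were matched in STUS/Hum (55.7%, 52.6 to 58.7%), 426 were B6-sided there too (41.3%, 38.4 to 44.4%) and 31 were other-sided (3.01%, 2.13 to 4.24%). Of the 993 matched in Hum/SPRT, 786 were matched in STUS/Hum (79.2%, 76.5 to 81.6%), 141 were B6-sided (14.2%) and 66 other-sided (6.65%). Of the 243 other-sided, 126 (51.9%, 45.6 to 58.1%) were other-sided in STUS/Hum, 104 (42.8%) matched and 13 (5.35%) B6-sided. Read the other way, 73.4% of the 580 B6-sided and 56.5% of the 223 other-sided hotspots of STUS/Hum fell in the same class in Hum/SPRT, and 53.7% of its 1464 matched ones.

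The strongest site that was B6-sided in Hum/SPRT and matched in STUS/Hum lay on chromosome 5 at position 20754332, 4.33 kb from Phtf2. Its signal was 323 and 407, with 99.7 and 73.5% of DMC1 reads from B6, the latter just inside the 75% limit. Its counterpart that was matched in Hum/SPRT and B6-sided in STUS/Hum was on chromosome 3 at position 11007479, 149.9 kb from Gm33551, with 332 and 229, and 45.3 and 85.5% from B6. Within Klc1, a kinesin light chain gene, on chromosome 12 at position 111790005, the signal was 106 and 205, and the B6 share was 95.9 and 16.1%, so that different homologs were cut in the crosses. The opposite swap was on chromosome 11 at position 8231525, 200.1 kb from the tensin gene Tns3, with 98.9 and 54.3, and 21.9 and 95.2% from B6.

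Zmynd11, which encodes a histone reader, held the strongest site that was matched in Hum/SPRT and other-sided in STUS/Hum (chromosome 13, position 9741285), with 146 and 216. Its B6 share was 62.4 and 24.8%, the latter just under the 25% limit. Gramd1b, a sterol transport gene, held the strongest site other-sided in Hum/SPRT and matched in STUS/Hum (chromosome 9, position 40337794), with 277 and 295, and 24.0 and 45.5% from B6. Some strong sites thus changed class by a small step over a limit.

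Among sites cut mainly on B6 in both crosses, the strongest was on chromosome 19 at position 53093514 within Gm30234, a long noncoding RNA gene, with a signal of 271 and 300 and with 97.0 and 95.1% of reads from B6. Within Ebf1, a transcription factor gene of B lymphocytes (chromosome 11, position 44645464), the values were 219 and 247, and 98.8 and 76.5%. Within Adgrb3, an adhesion receptor gene (chromosome 1, position 25832168), they were 217 and 187, and 98.4 and 87.6%. Among sites cut mainly on the other homolog in both, the strongest was on chromosome 8 at position 31141215, 7.90 kb from Rnf122, with 300 and 397, and 1.64 and 1.24% from B6. Within the phosphoinositide phosphatase gene Fig4 (chromosome 10, position 41273334) the values were 204 and 157, and 2.34 and 2.53%, and within the bromodomain gene Baz2b (chromosome 2, position 60114657) 143 and 195, and 6.16 and 9.48%.

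The change in signal between the crosses went along with the change in class. The log2 ratio of the STUS/Hum over the Hum/SPRT signal was centred on its median over all pairs, since the unit of the authors is not stated to be comparable between libraries. Its median was 0.12 (quartiles -0.23 and 0.54) where the site was B6-sided in both, -0.11 (-0.55 and 0.36) where matched in both and -0.27 (-0.84 and 0.37) where other-sided in both. Sites B6-sided in Hum/SPRT and matched in STUS/Hum had a median of 0.58 (0.13 and 0.99), and 86.2% of the 574 ranked higher in STUS/Hum. Sites other-sided in Hum/SPRT and matched in STUS/Hum had -0.82 (-1.37 and -0.34). The most extreme medians, 1.24 over 31 pairs and -1.63 over 13, were at sites that changed side.

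Each hotspot's signal was then divided between its homologs by multiplying it with the fraction of reads from each. Over the 2267 pairs the B6-homolog signal had a rho of 0.79 between the crosses and the other-homolog signal a rho of 0.34. The B6 value was the higher on 19 of 19 autosomes, at 0.72 to 0.87 against 0.14 to 0.48. The whole signal of the same pairs had a rho of 0.64. The B6 genome is the one the hybrids share, while the other homolog is SPRT in one and STUS in the other. The parts come from the same signal and fraction in each library, so the measures are not independent of each other or of the classes.

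Within the 786 pairs matched in both crosses, rho was 0.76 for the B6-homolog signal, 0.67 for the other-homolog signal and 0.78 for the whole. It was 0.74 for the whole signal of the 426 pairs that were B6-sided in both, and 0.54 for the 126 that were other-sided in both. The median B6-homolog signal over the 2267 pairs was 22.1 in Hum/SPRT and 25.6 in STUS/Hum, and the median other-homolog signal was 9.64 and 21.6. Of the summed signal, 59.2% was on B6 in Hum/SPRT and 53.1% in STUS/Hum.

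**Figure D4:**
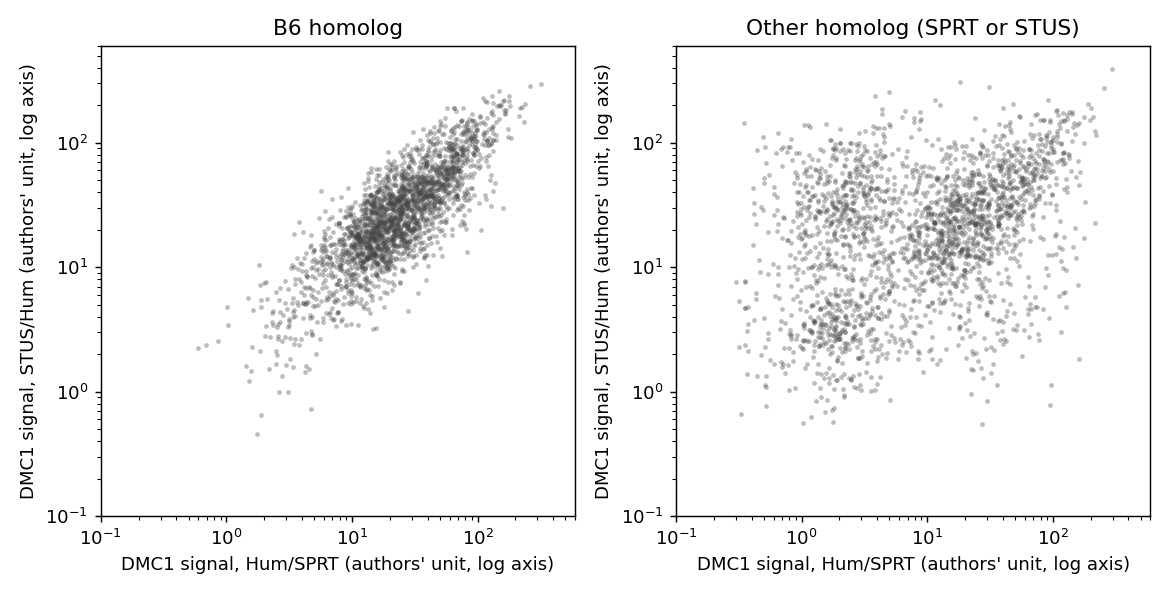
DMC1 signal assigned to the B6 homolog (left) and to the SPRT or STUS homolog (right) at paired humanized hotspots, in Hum/SPRT (x axis) and STUS/Hum (y axis), in the authors' unit on log axes, for the pairs above 0 in both libraries (2264 on the left and 2231 on the right). The B6 points form 1 narrow band (rho 0.79), and the other-homolog points spread over the panel (rho 0.34).

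H3K4me3, the mark that PRDM9 places before any break, was measured in Hum/SPRT apart from DMC1. Its B6 fraction had an r of 0.93 with the DMC1 B6 fraction of the same genotype (2432 paired hotspots) and of 0.48 with that of STUS/Hum (2923). Sites B6-sided in Hum/SPRT had a median of 89.2% of H3K4me3 reads from B6 where they were B6-sided in STUS/Hum, 88.2% where matched there and 88.3% where other-sided there. Sites matched in Hum/SPRT had 57.6, 55.8 and 52.8% by the same classes. Within each of these classes of Hum/SPRT, the medians by class in STUS/Hum lay within 5 percentage points of each other. Among sites other-sided in Hum/SPRT the medians were 44.1, 44.3 and 27.2%. The last is of sites that were other-sided in both crosses (quartiles 15.9 and 35.7%).

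**Figure D5:**
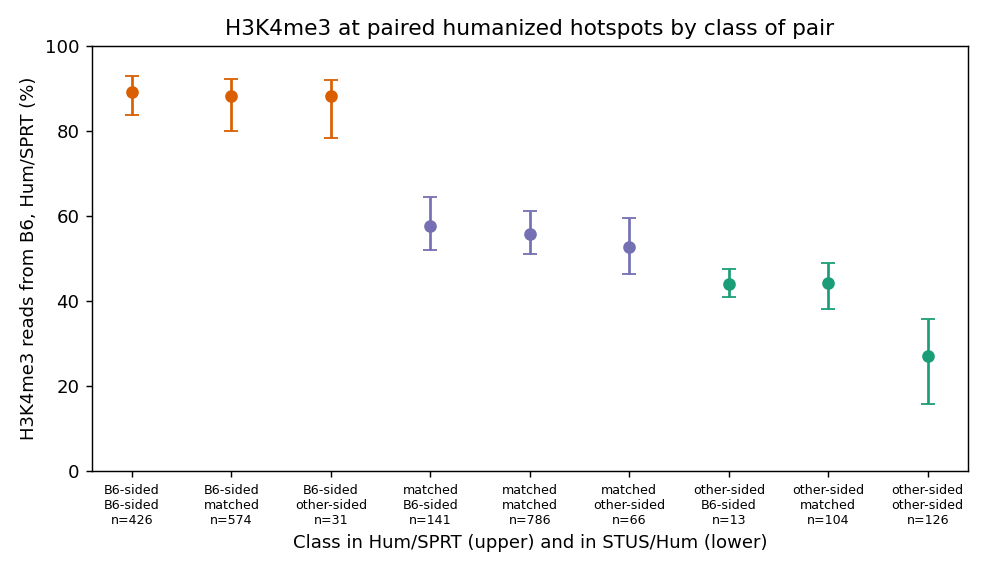
Share of H3K4me3 reads from the B6 homolog in Hum/SPRT (y axis, percent) at paired humanized hotspots by class in Hum/SPRT (upper label, color) and in STUS/Hum (lower label), as medians with quartiles. The medians lie at 88.2 to 89.2%, at 52.8 to 57.6%, and at 44.1, 44.3 and 27.2%.

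At sites without a partner in STUS/Hum the same order was seen, with medians of 85.5% of H3K4me3 reads from B6 for B6-sided, 53.8% for matched and 30.7% for other-sided sites. H3K4me3 enrichment over input had a median of 6.37 at paired and 4.59 at unpaired hotspots, and of 7.66, 5.07 and 6.16 at matched, B6-sided and other-sided paired hotspots. Against the DMC1 signal of STUS/Hum its rho was 0.31, and against that of Hum/SPRT 0.48 (3179 pairs each). Divided by homolog, the B6 part of the enrichment had a rho of 0.50 with the B6-homolog DMC1 signal of STUS/Hum, and the SPRT part a rho of 0.27 with its STUS-homolog signal (2923 pairs).

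At hotspots that Hum/SPRT could not assign to a homolog by DMC1 (747 of the pairs), the STUS/Hum library had a fraction at 666, and 449 of these were matched. At those 449 the H3K4me3 of Hum/SPRT had a median of 64.2% of reads from B6. The median was 44.0% at the 135 sites cut mainly on STUS and 64.6% at the 82 B6-sided ones.

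The same values were computed for alleles seen in other pairs of genotypes. Because alleles were assigned by comparing mice, a paired share may be set in part by the assignment itself, and this was not tested. SPRT-allele hotspots of B6/SPRT and Hum/SPRT, hybrids with the same pair of genomes that differ in the B6-side *Prdm9* allele, were paired at 98.7% (9128 of 9247), with a rho of 0.96 for signal and an r of 0.98 for the B6 fraction. STUS-allele hotspots of STUS/B6 and STUS/Hum had 0.89 and 0.93 over 3479 pairs, which were 94.2% of those in STUS/Hum and 39.2% of those in STUS/B6. The B6 allele in B6/SPRT and STUS/B6, which like the humanized allele met both foreign genomes, had 3330 pairs (80.8 and 54.5% of each library). It had a rho of 0.67 for the signal and an r of 0.70 for the B6 fraction. Humanized hotspots, at 0.62 and 0.46, had the lowest values of these 4 sets. In the paper's model, strong sites of a resident allele such as B6 are often lost from its own genome. A new allele likely meets intact sites. The sets may therefore differ in the spread of B6 fractions, on which r and the share in the same class depend.

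Class was the same in both libraries at 59.0% (57.0 to 61.0%) of humanized pairs, at 76.6% (74.7 to 78.4%) of B6 pairs, at 94.6% of SPRT pairs and at 91.0% of STUS pairs. Matched in both were 34.7% of humanized pairs and 20.2% of B6 pairs. For the B6 allele the rho of the homolog signals was 0.72 on B6 and 0.66 on the other homolog, closer together than the 0.79 and 0.34 of the humanized allele. The hybrids of the same genome pair had 0.98 and 0.90 (SPRT hotspots) and 0.93 and 0.80 (STUS hotspots). Each set rests on 1 library per genotype, and none of these differences was tested.

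Humanized hotspots, like those of the SPRT and STUS alleles, lay mostly within genes, as annotated in RefSeq on GRCm38.p6. The share was 66.3% (64.6 to 67.9%) of paired hotspots, 66.7% (64.1 to 69.2%) of those found only in Hum/SPRT and 61.0% (58.5 to 63.4%) of those found only in STUS/Hum. It was 60.9% (59.9 to 61.9%) of SPRT-allele hotspots in Hum/SPRT and 61.0% (59.4 to 62.5%) of STUS-allele hotspots in STUS/Hum. Within 1 kb of a gene start lay 1.38% (1.02 to 1.85%) of paired hotspots, 1.52% of those only in Hum/SPRT and 1.82% of those only in STUS/Hum. For the SPRT and STUS alleles the shares were 1.62 and 1.77%, with intervals that overlap those of the humanized sets. Gene starts of chromosome 18 were not used here. By autosome, humanized hotspots numbered 165 (chromosome 16) to 329 (chromosome 2) in Hum/SPRT and 163 (chromosome 19) to 384 (chromosome 2) in STUS/Hum.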

How the data were processed

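DMC1 SSDS and H3K4me3 ChIP-seq of adult testis were analyzed from 4 hotspot tables. Per the deposited notes, reads were mapped with BWA to mm10. The authors called hotspots de novo in each DMC1 assay and attributed them to an allele. The deposited DMC1 signal is in the authors' unit, and the deposited fraction is that of SNP-carrying reads from B6. For Hum/SPRT the authors also deposited an H3K4me3 enrichment ratio over input, its B6 fraction and the count of SNP-carrying reads. A further 27 columns of values were not used.

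Hotspots were paired within 500 bp with Python 3.11.15, pandas 2.3.3, numpy 2.4.6 and scipy 1.17.1; plots used matplotlib 3.10.9. Pairing and a correlation were checked on simulated hotspots, spaced so widely that no wrong partner lay within the limit. The class limits were checked on set values, and the other steps were not checked in this way. Spearman's and Pearson's correlations and 95% Wilson intervals were computed, with no test. Genes came from RefSeq (GRCm38.p6), the assembly of mm10.

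Named hotspots were the strongest pair by mean percentile in each of the 9 combinations of classes (the first 3 where both classes agree), the 3 strongest of each library with no hotspot in the other, and the 2 largest percentile gaps in each direction. The members, classes and this rule were chosen with earlier results of these data known. The shares within groups of 25% by signal were added after seeing the data.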

Additional observations from a re-analysis of the deposited data

How the results depend on the processing

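The alternatives gave 58 further values of 18 results. Of these, 26 lay within the 95% counting interval of the reported value (Wilson for shares, Fisher's z for correlations, order statistics for medians) and 32 outside it. No correlation changed sign, and every ratio of paired over unpaired median signal stayed above 1.

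Pairing within 250 bp lowered the paired share to 64.1% in Hum/SPRT and 60.8% in STUS/Hum, keeping the strongest 2000 hotspots of each library gave 62.1% for both, and counting partners of any allele gave 74.6% in Hum/SPRT. Pearson's r of the log2 signal was 0.65, and Spearman's rho of the B6 fraction 0.42. With limits of 10 to 90%, 58.0% of pairs were matched in both crosses, 31.1% in 1 and 10.9% in neither; with 40 to 60%, 10.2% were matched in both and 51.8% in neither. Weighted by signal, 38.8% were matched in both and 22.8% in neither.

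The matched share of paired and unpaired hotspots was 66.1 and 75.4% in Hum/SPRT and 82.6 and 85.8% in STUS/Hum with limits of 10 to 90%, so the order of paired and unpaired turned in both crosses. It was 20.7 and 15.3% and 37.3 and 28.8% with 40 to 60%, 50.7 and 30.0% and 69.3 and 53.3% weighted by signal, and 34.2 and 26.2% and 60.2 and 51.7% with hotspots without a fraction counted as unmatched. The cause was not tested. Within pairs matched in both, rho was 0.76 for the B6-homolog and 0.67 for the other-homolog signal. The limits for matched tie each part to the whole signal of the site. This selection may itself narrow the gap between the homologs, which was not tested. These values therefore cannot show on which pairs that gap rests.

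No paired analysis was possible because each cross has 1 DMC1 library. The depth behind the B6 fractions is unknown. A hotspot missing from a library was not called there, and whether depth or the absence of cutting set this was not tested.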

Other observations

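On the X chromosome, which was outside the autosomal comparison and was examined after the data were seen, there were 203 humanized hotspots in Hum/SPRT and 208 in STUS/Hum. Of these, 161 were paired, which is 79.3% (95% Wilson interval 73.2 to 84.3%) and 77.4% (71.3 to 82.6%). Spearman's rho of the DMC1 signal over these pairs was 0.89, against 0.62 over the autosomal pairs and 0.79 for the autosomal signal of the B6 homolog. The males carry 1 X chromosome, and the lowest share of reads from B6 at a paired X hotspot was 97.9% in Hum/SPRT (159 with a fraction) and 95% in STUS/Hum (148). The X reads of both libraries thus came from B6, as from a B6 mother. The labels put B6 first in the name of the STUS cross, whereas the study calls these hybrids STUSB6F1 and bred that cross in both directions. The median signal at these pairs was 48.6 in Hum/SPRT and 63.7 in STUS/Hum.

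Unpaired humanized hotspots of Hum/SPRT that lay at an unassigned hotspot of STUS/Hum had a median signal of 35.7 in Hum/SPRT and 48.7 in STUS/Hum (166 sites). The 49 in the reverse case had 42.7 in STUS/Hum and 114 at the unassigned hotspot of Hum/SPRT.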
